A study of Homo sapiens with 8 samples.

Results

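The interferon regulatory factors other than IRF4 were examined by RNA sequencing in LP-1, an established human multiple myeloma cell line. The genes were 7 DNA-binding factors (IRF1, IRF2, IRF3, IRF5, IRF7, IRF8 and IRF9) and 3 IRF2-binding proteins (IRF2BP1, IRF2BP2 and IRF2BPL), 10 of the 63129 genes in the deposited table. They were selected on their gene symbols, with their RPKM values and both comparisons of a compound with DMSO already in view. Their differences from DMSO are therefore given as descriptions, without p-values. The 8 libraries fell into 4 groups of 2 biological replicates (R1 and R2), all taken after 6 hr of treatment. In the SGC-CBP30 experiment, cells received 2.5 μM SGC-CBP30, an inhibitor of the CBP and EP300 bromodomains, or the solvent DMSO. In the CPI203 experiment, cells received 0.25 μM CPI203, a pan-BET bromodomain inhibitor, or DMSO. Which pair of DMSO libraries belongs to which compound follows from the library names, and the pairs are called the SGC-CBP30 controls and the CPI203 controls. Everything was measured in a single cell line at a single dose and time per compound.

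Expression is given in RPKM, a read number normalised to gene length and to sequencing depth, so that levels of different genes can be compared per length. Fold changes are on the scale of log2(RPKM + 0.1), which understates the change of low genes, and each carries its standard error from the fit. Genes averaging 1 RPKM or more were tested with limma. A gene was called when its Benjamini-Hochberg adjusted p was under 0.05 and its change reached 1.5-fold. Adjusted p-values printed for genes outside the 10 come from the same fit. The pathway lists were also chosen with earlier results of these data known, so those p-values are descriptions too. For a gene taken alone, the smallest p of an exact two-sided permutation of 2 libraries against 2 is 0.333. Between 26050000 and 50150000 reads per library were estimated from the steps between low RPKM values, and the SGC-CBP30 libraries were the deepest. Of 10 plasma cell markers, 9 averaged 1 RPKM or more, none of the T cell, epithelial or fibroblast markers did, and of 7 monocyte and macrophage markers only CD68 did. The RNA came from whole cultures, in which fewer cells of a type and less RNA per cell cannot be told apart.

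Interferon regulatory factors bind related DNA elements through a shared amino-terminal domain. IRF3, IRF5 and IRF7 are activated by sensors of foreign nucleic acid and switch on interferon genes, IRF9 carries the interferon signal to DNA together with STAT proteins such as STAT2, and IRF1 and IRF2 compete for the same elements as activator and repressor. IRF8 is the closest relative of IRF4, the factor on which plasma cells and myeloma cells depend. Of the IRF2-binding proteins, IRF2BP1 and IRF2BP2 were named as corepressors that dock on IRF2.

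By the ratio of mean RPKM, with CPI203 IRF7 was 5.57-fold and IRF9 2.78-fold higher than with DMSO, and IRF8 was 6.28-fold lower. With SGC-CBP30, IRF2 was 2.11-fold lower and no other member reached a change of 1.5-fold among those tested. Of the 10 genes, 9 were tested and IRF5 was too low. Against DMSO, 1 of the 9 was called lower with SGC-CBP30 and 0 were called higher, where 3.79% of the 14732 genes tested were called lower and 3.47% higher. With CPI203, 2 were called higher and 1 lower, where 13.4% of all genes tested were called higher and 14.4% lower. The 2 libraries with compound lay apart from the 2 with DMSO for 8 of the 9 with SGC-CBP30 and for 9 of the 9 with CPI203, as they did for 73.1% and 80.8% of all genes tested. The median log2 fold change of the 9 was -0.33 with SGC-CBP30 and -0.14 with CPI203, beside 0.07 and -0.01 over all genes tested.

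**Figure D1:**
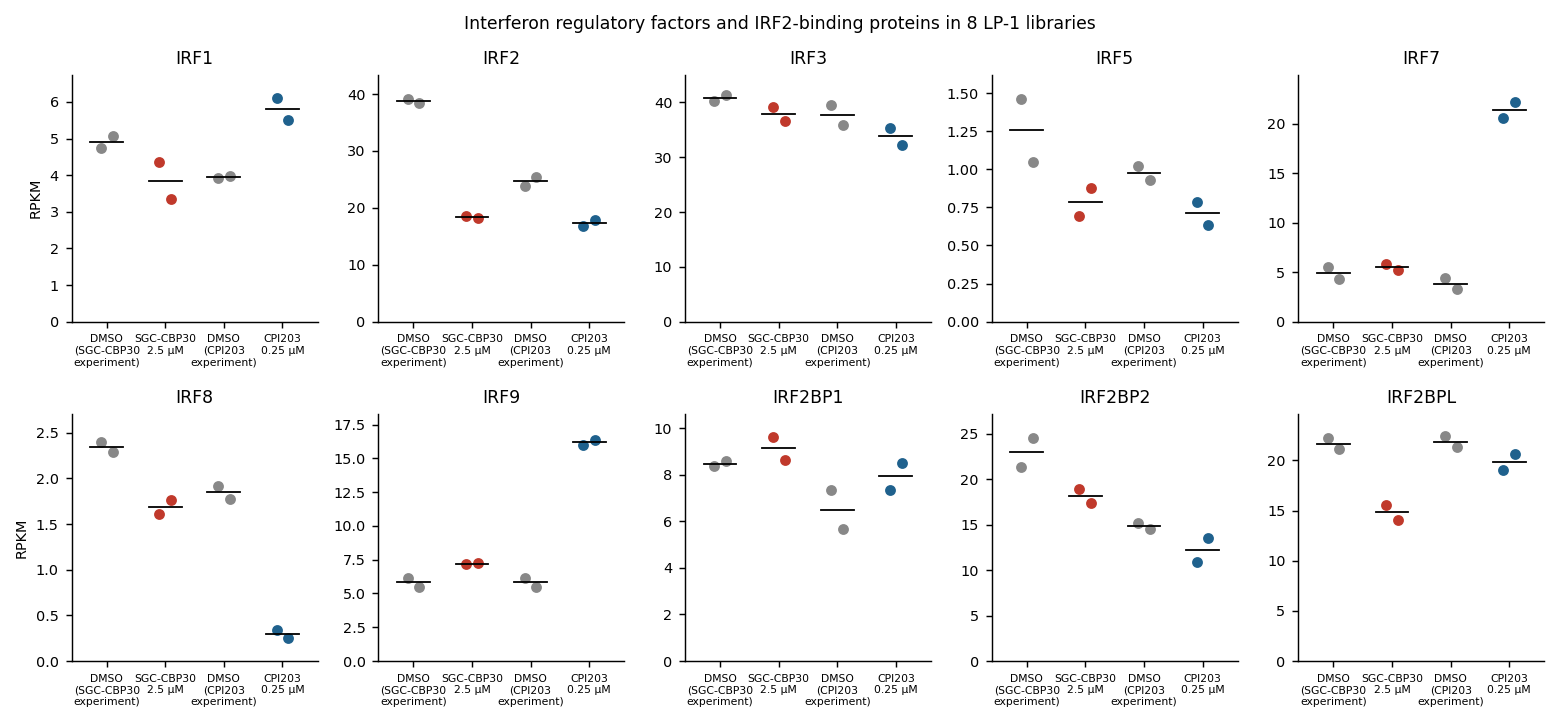
RPKM (y axis, from 0) of the 10 genes in each of the 8 libraries, grouped along the x axis by treatment and experiment. Points are single libraries and lines are group means. The CPI203 libraries stand far above the rest for IRF7 and IRF9 and far below for IRF8, and the SGC-CBP30 controls stand above the rest for IRF2.

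Untreated LP-1 cells held the 10 genes at levels between about 1 and 40 RPKM. In the SGC-CBP30 controls, IRF3 was highest at a mean of 40.7 RPKM, followed by IRF2 at 38.8 RPKM, IRF2BP2 at 22.9 RPKM and IRF2BPL at 21.7 RPKM. IRF2BP1 at 8.48 RPKM, IRF9 at 5.82 RPKM, IRF7 and IRF1 both at 4.91 RPKM, IRF8 at 2.34 RPKM and IRF5 at 1.25 RPKM followed. Neighbours in this order whose libraries overlapped were IRF2BP2 with IRF2BPL, IRF9 with IRF7, and IRF7 with IRF1. In the CPI203 controls, IRF3 and IRF2 were again the highest and IRF8 and IRF5 the lowest, at 37.7, 24.7, 1.85 and 0.977 RPKM. CPI203 rearranged the order. IRF7, which ranked 8 of 10 with DMSO, ranked 2 with CPI203 at 21.4 RPKM, where its libraries overlapped those of IRF2BPL. IRF8 dropped below IRF5 to the last place at 0.295 RPKM. With SGC-CBP30 the order of the DMSO libraries was kept, and only IRF2 and IRF2BP2 had overlapping libraries. IRF4, outside this group, was far more abundant, at 213 RPKM with DMSO in the SGC-CBP30 experiment and 228 RPKM in the CPI203 experiment.

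**Figure D2:**
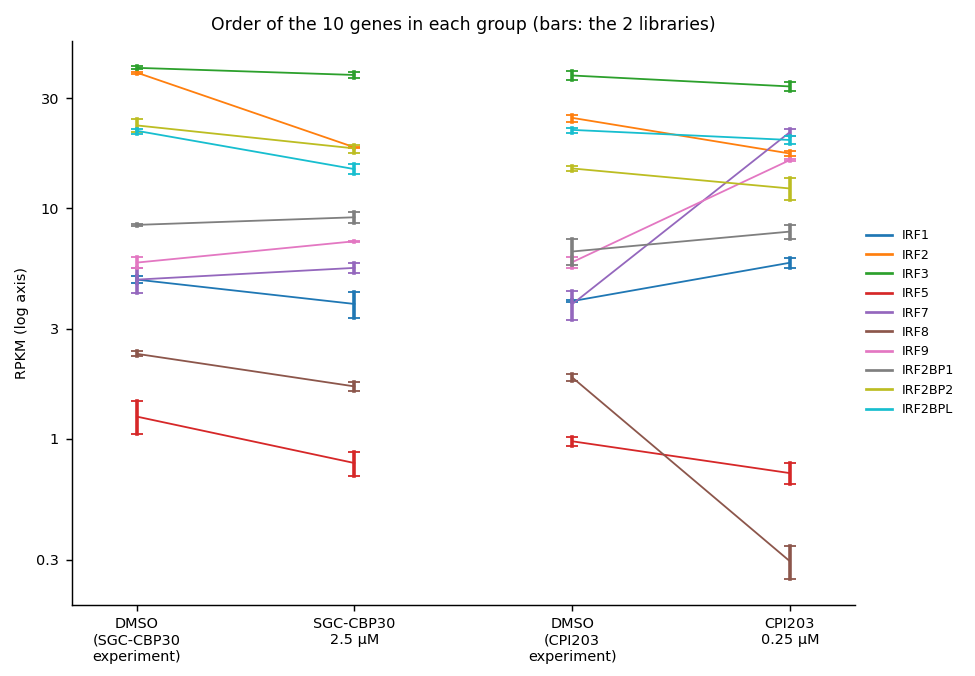
RPKM on a log axis (y) for the 10 genes in the 4 groups (x). Each vertical bar joins the 2 libraries of a group and each line joins the means of DMSO and compound within an experiment. IRF7 and IRF9 cross several other genes with CPI203 and IRF8 drops to 0.295 RPKM, whereas the order is kept with SGC-CBP30.

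Among the factors that act downstream of nucleic acid sensors, IRF7 stood out. IRF7 (ENSG00000185507, hg19 chr11:612552-615999) is the amplifier of the type I interferon response. It was measured at 4.40 and 3.28 RPKM with DMSO and at 20.6 and 22.2 RPKM with CPI203, a log2 fold change of 2.46 with an SE of 0.149. Both CPI203 libraries lay far above both controls, and the log2 fold change stayed between 2.22 and 2.67 in 17 alternative analyses. In the SGC-CBP30 experiment, IRF7 was at 5.51 and 4.31 RPKM with DMSO and at 5.80 and 5.25 RPKM with the compound, so the groups overlapped. Its log2 fold change there was 0.18 with an SE of 0.149, and it was not called.

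IRF3 (ENSG00000126456, chr19:50162825-50169132), the constitutively expressed factor behind early interferon induction, hardly moved. It was at 40.2 and 41.3 RPKM with DMSO against 39.1 and 36.6 RPKM with SGC-CBP30, and at 39.5 and 35.9 RPKM with DMSO against 35.3 and 32.3 RPKM with CPI203. Its log2 fold changes were -0.11 and -0.16, each with an SE of 0.063, and neither was called. The gene overlaps BCL2L12, an apoptosis regulator, in the deposited annotation. Whether reads were assigned by strand is not given in the sources used here, and BCL2L12 differed from its control by -0.06 with SGC-CBP30 and 0.44 with CPI203 on the log2 scale.

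IRF5 (ENSG00000128604, chr7:128577665-128590089), which acts downstream of Toll-like receptors, was the lowest of the 10 in 3 of the 4 groups and was not tested. It was at 1.46 and 1.05 RPKM with DMSO and at 0.694 and 0.878 RPKM with SGC-CBP30. In the CPI203 experiment it was at 1.02 and 0.932 RPKM with DMSO and at 0.785 and 0.637 RPKM with the compound. Both compound groups thus lay below their controls. These levels rest on an estimated 19.0 to 50.1 reads per kilobase. Fitted without the filter on low values, its log2 fold changes were -0.60 and -0.41, each with an SE of 0.218, and neither was called.

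IRF9 (ENSG00000213928, chr14:24630261-24635774) is the DNA-binding subunit of ISGF3, the complex that carries the type I interferon signal. It was at 6.18 and 5.51 RPKM with DMSO and at 16.0 and 16.4 RPKM with CPI203, so both treated libraries lay above both controls. The log2 fold change was 1.46 with an SE of 0.085, and it was called. In the SGC-CBP30 experiment the values were 6.14 and 5.50 RPKM with DMSO and 7.16 and 7.24 RPKM with the compound, again apart. That difference, 0.30 on the log2 scale with an SE of 0.085, was smaller than 1.5-fold and was not called. IRF9 was the member whose DMSO levels in the 2 experiments were the closest, with means of 5.82 and 5.84 RPKM.

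STAT2, which joins IRF9 in ISGF3, was at 39.9 and 41.5 RPKM with DMSO and rose to 93.9 and 93.6 RPKM with CPI203, a log2 fold change of 1.20 (SE 0.041, limma adjusted p = 1.8e-08). Both treated libraries lay far above both controls. With SGC-CBP30, STAT2 was at 31.9 and 32.0 RPKM against 36.5 and 35.2 RPKM with DMSO, a log2 fold change of -0.17 that was not called. IRF9 and STAT2 RNA were thus both higher with CPI203.

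The 250 bases before the start of IRF9 are shown with those of IRF1 because each holds a match to the gamma-activated site (GAS), the element recognised by STAT dimers. The capitals mark the match to TTCNNNGAA, where N is any base. Both were read from the RefSeq promoter table on GRCh38.p14, IRF9 from chr14:24161015-24161264 on the plus strand and IRF1 from chr5:132490774-132491023 on the minus strand, written 5′ to 3′ along the gene.
IRF9: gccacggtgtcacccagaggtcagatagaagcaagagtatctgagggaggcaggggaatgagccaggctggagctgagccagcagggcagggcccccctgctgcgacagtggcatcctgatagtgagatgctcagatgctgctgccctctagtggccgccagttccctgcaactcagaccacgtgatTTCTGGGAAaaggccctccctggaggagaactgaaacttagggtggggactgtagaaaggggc
IRF1: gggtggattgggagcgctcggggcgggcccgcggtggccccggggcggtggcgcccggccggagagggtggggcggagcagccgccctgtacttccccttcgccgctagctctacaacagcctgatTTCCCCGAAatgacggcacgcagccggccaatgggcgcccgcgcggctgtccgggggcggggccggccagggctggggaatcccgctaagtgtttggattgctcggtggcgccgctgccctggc
The match begins 63 bases before the start of IRF9 and 124 bases before that of IRF1. The table held 12 promoter windows, each of 250 bases before and 50 bases after a start, for 7 of the 10 genes. IRF2, IRF3 and IRF7 were not matched. A GAS match on either strand was found in 3 of the 12 windows, those of IRF1, IRF9 and IRF2BP1, and in 7.66% of all 35116 windows of that length. The core of the interferon-stimulated response element, GAAANNGAA, was found in 1 of the 12, at a start of IRF5, and in 8.11% of all windows. An NF-kappaB site was found in 4 of the 12, at starts of IRF1, IRF5 and IRF8, of which that of IRF8 may not be its main start, and in 25.6% of all windows. The E-box CACGTG was found in 1 of the 12, that of IRF9 where it does not overlap the GAS match, and in 7.26% of all windows. The windows of IRF2BP2 and IRF2BPL held none of these 4 motifs. A match is a property of the sequence and no measurement of binding.

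IRF2 (ENSG00000168310, chr4:185308866-185395734), which represses genes that IRF1 activates, was at 39.1 and 38.4 RPKM with DMSO and at 18.5 and 18.3 RPKM with SGC-CBP30. The 2 groups were far apart, with a log2 fold change of -1.07 and an SE of 0.055. With CPI203, IRF2 was at 16.8 and 17.8 RPKM against 23.8 and 25.5 RPKM with DMSO, also apart, with a log2 fold change of -0.51 and an SE of 0.055. This change was 1.42-fold, below the 1.5-fold minimum, and was not called.

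The untreated level of IRF2 was not the same in the 2 experiments, and this bears on its comparison between compounds. The DMSO libraries held 38.8 ± 0.532 RPKM (SD, n = 2) in the SGC-CBP30 experiment and 24.7 ± 1.21 RPKM (SD, n = 2) in the CPI203 experiment, a log2 difference of -0.65 with an SE of 0.055. With compound, the means were close, 18.4 ± 0.185 RPKM with SGC-CBP30 and 17.3 ± 0.751 RPKM with CPI203 (SD, n = 2 each). When all 4 DMSO libraries served as controls for each compound, the log2 fold change was -0.74 with SGC-CBP30, no longer called, and -0.83 with CPI203, then called. The difference between the compounds changed its sign, from -0.56 to 0.09. The experiment and the compound cannot be told apart in this design beyond what each experiment's own DMSO libraries give.

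IRF1 (ENSG00000125347, chr5:131817300-131826490), an activator induced by interferon-gamma, was at 4.75 and 5.07 RPKM with DMSO and at 4.35 and 3.35 RPKM with SGC-CBP30. In the CPI203 experiment it was at 3.92 and 3.99 RPKM with DMSO and at 6.11 and 5.51 RPKM with the compound. Both pairs of groups were apart, in opposite directions, and the log2 fold changes were -0.35 and 0.54, each with an SE of 0.127. Neither was called, and the CPI203 value, 1.47-fold, was called when CPI203 R2 was left out. The SGC-CBP30 value rested on R2, the lower library, and was -0.17 without it and -0.54 without R1.

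IRF8 (ENSG00000140968, chr16:85932408-85956215), a factor of B cells and myeloid cells, was low throughout and lowest with CPI203. It was at 1.92 and 1.78 RPKM with DMSO and at 0.343 and 0.247 RPKM with CPI203, which corresponds to an estimated 55.4 and 47.3 reads per kilobase against 8.92 and 7.34. The log2 fold change was -2.31 with an SE of 0.189. With a pseudocount of 1 RPKM it was -1.14, still called. With SGC-CBP30, IRF8 was at 1.61 and 1.76 RPKM against 2.40 and 2.29 RPKM with DMSO, apart but not called, with a log2 fold change of -0.45 and an SE of 0.189. Of 7 B cell markers 2 were tested. Both were called lower with CPI203, where 14.4% of all genes tested were. BLNK fell by 2.67 (limma adjusted p = 1.58e-07) and CD79B by 0.88 (limma adjusted p = 9.79e-07) on the log2 scale. BLNK also differed between the DMSO groups, at 2.76 and 2.42 RPKM in the SGC-CBP30 controls and 5.9 and 6.12 RPKM in the CPI203 controls. PAX5 was listed at 0 in all libraries. The summed level of the 7 B cell markers was mostly that of CD79B. In the CPI203 experiment the sum was 31.0 RPKM in both DMSO libraries and 14.3 to 15.1 RPKM with CPI203. The summed level of the 10 plasma cell markers was 1360 to 1366 RPKM with DMSO and 877 to 901 RPKM with CPI203. MZB1 and XBP1 held most of that sum, at means of 436 and 333 RPKM with DMSO. Of the 9 tested, 0 were called higher and 4 lower with CPI203, where 13.4% and 14.4% of all genes tested were. PRDM1 and SEC11C lay higher with CPI203, by 0.36 and 0.11 on the log2 scale, and neither was called. In the SGC-CBP30 experiment the B cell markers summed to 25.2 to 26.4 RPKM with DMSO and 19.0 to 19.9 RPKM with the compound. The plasma cell markers summed to 1209 to 1272 RPKM and 1024 to 1047 RPKM. Of the tested markers, 0 B cell and 1 plasma cell marker (PRDM1) were called lower with SGC-CBP30, where 3.79% of all genes tested were. The part of these markers in the IRF8 values was not tested.

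IRF4 itself was also lower with both compounds, but its larger decrease was with SGC-CBP30, whereas that of IRF8 was with CPI203. It was at 215 and 211 RPKM with DMSO against 86.2 and 79.5 RPKM with SGC-CBP30, a log2 fold change of -1.36, and at 228 RPKM in both DMSO libraries against 203 and 202 RPKM with CPI203, a log2 fold change of -0.17. IRF8 thus lay 6.28-fold below its control where IRF4 lay 1.13-fold below, and with SGC-CBP30 IRF8 lay 1.39-fold and IRF4 2.57-fold below.

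Factors that share composite DNA elements with IRF4 and IRF8 were mostly low. Of 8 listed, 4 were tested and 0 were called with SGC-CBP30, where 3.47% of all genes tested were called higher and 3.79% lower. Of the 4, 2 were called higher and 1 lower with CPI203, where 13.4% and 14.4% of all genes tested were. With CPI203, the AP-1 subunits JUN and JUND rose by 1.43 and 1.27 (SE 0.077 and 0.143, limma adjusted p = 2.66e-07 and 3.3e-05) and the ETS factor SPIB fell by 0.98 (SE 0.173, limma adjusted p = 0.000709) on the log2 scale.

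The 3 IRF2-binding proteins were expressed at 5.68 to 24.5 RPKM and none was called with either compound. IRF2BPL (ENSG00000119669, chr14:77490887-77495034) was at 22.2 and 21.1 RPKM with DMSO and at 15.6 and 14.1 RPKM with SGC-CBP30, groups apart, with a log2 fold change of -0.54 and an SE of 0.069. This 1.46-fold difference was just under the fold minimum and was called after median scaling (-0.62), after quantile normalization and without SGC-CBP30 R1. In the CPI203 experiment IRF2BPL was at 22.4 and 21.3 RPKM with DMSO and at 19.0 and 20.6 RPKM with the compound, a log2 fold change of -0.14 with an SE of 0.069.

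IRF2BP2 (ENSG00000168264, chr1:234740014-234745271) was lower with both compounds, at 18.9 and 17.4 RPKM with SGC-CBP30 against 21.4 and 24.5 RPKM and at 10.9 and 13.5 RPKM with CPI203 against 15.2 and 14.5 RPKM. Its log2 fold changes were -0.33 and -0.29, each with an SE of 0.104, and with all 4 DMSO libraries as controls they were -0.02 and -0.60. Within the span of IRF2BP2 lies RP4-781K5.2, a separate annotated gene at 7.16 to 10.4 RPKM, whose own values were not called with either compound. IRF2BP1 (ENSG00000170604, chr19:46386865-46389376) lay slightly higher with both, at 9.64 and 8.65 RPKM against 8.37 and 8.58 RPKM and at 7.37 and 8.50 RPKM against 7.33 and 5.68 RPKM. Its log2 fold changes were 0.11 and 0.29, each with an SE of 0.122.

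**Figure D3:**
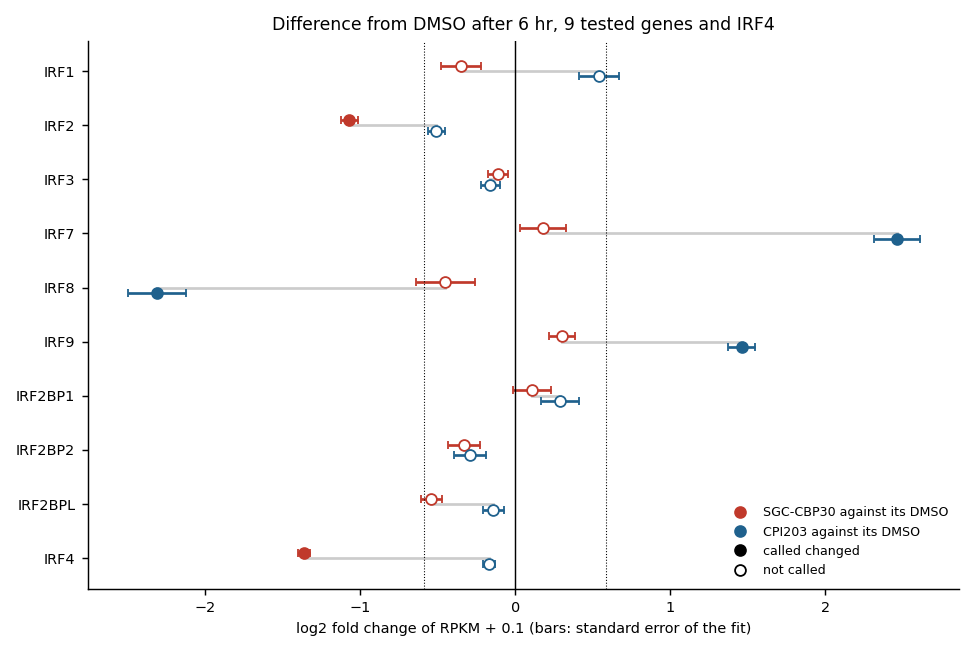
Log2 fold change of RPKM + 0.1 (x axis) for the 9 tested genes and IRF4 (y axis), with SGC-CBP30 in red and CPI203 in blue, each against its own DMSO libraries. Bars are standard errors of the fit, dotted lines mark 1.5-fold, and filled points were called. IRF2 and IRF4 are filled for SGC-CBP30, and IRF7, IRF8 and IRF9 for CPI203.

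The responses to the compounds were also set against each other, as the SGC-CBP30 effect minus the CPI203 effect, each relative to its own DMSO libraries. The 2 compounds have different targets and were used at different doses, so this is a comparison of the treatments as given. At an adjusted p under 0.05 with no fold minimum, 6 of the 9 differed, where 50.3% of all genes tested did. The log2 differences of these 6 were -2.29 for IRF7, 1.86 for IRF8, -1.15 for IRF9, -0.89 for IRF1, -0.56 for IRF2 and -0.40 for IRF2BPL. IRF3, IRF2BP1 and IRF2BP2 were not among them, with differences of 0.05, -0.18 and -0.04 and standard errors of 0.089, 0.173 and 0.147.

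The DMSO libraries of the 2 experiments were set against each other as well, again as a description, since their values were in view when the genes were chosen. IRF2 and IRF2BP2 were lower in the CPI203 experiment. IRF2BP2 was at 15.2 and 14.5 RPKM there against 21.4 and 24.5 RPKM, a log2 difference of -0.62 with an SE of 0.104, and lost its call when R2 of either DMSO group was left out. Thus 2 of the 9 were called lower and 0 higher, where 3.91% and 3.93% of all genes tested were. The log2 differences of the other 7 were -0.39 for IRF2BP1, -0.35 for IRF7, -0.33 for IRF8, -0.30 for IRF1, -0.11 for IRF3, 0.00 for IRF9 and 0.01 for IRF2BPL. The comparisons of IRF2 and IRF2BP2 with SGC-CBP30 and between experiments share the same DMSO libraries.

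Genes of the interferon pathway around these factors were followed in lists of receptors and JAK-STAT components, sensors and kinases, type I interferon-stimulated genes, interferon-gamma and IRF1 target genes, IRF partners, and coactivators. Of 113 listed genes 72 were tested. With SGC-CBP30, 1 rose and 16 fell, with a median log2 fold change of -0.17, where 3.47% of all genes tested were called higher and 3.79% lower. With CPI203, 14 rose and 16 fell, with a median of -0.13, where 13.4% were called higher and 14.4% lower. The number called with SGC-CBP30 was 4 when all 4 DMSO libraries were used as controls. The ligands themselves were all but absent. Of 6 interferon genes matched, 4 were listed at 0 in every library and the highest value was 0.154 RPKM.

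Of 15 receptors and JAK-STAT components tested, 7 rose and 1 fell with CPI203, where 13.4% of all genes tested were called higher and 14.4% lower. With SGC-CBP30, 0 rose and 1 fell, where 3.47% and 3.79% were. The difference between the compounds was not tested for the list. Beside STAT2, IFNGR1, the ligand-binding chain of the interferon-gamma receptor, rose from 10.4 and 11.4 RPKM to 22.3 and 21.3 RPKM with CPI203 (log2 fold change 1.00, SE 0.078, limma adjusted p = 2.57e-06). PTPN6, a phosphatase that restrains JAK signalling, fell with both compounds, by 1.23 with SGC-CBP30 and by 1.27 with CPI203 (SE 0.261 each, limma adjusted p = 0.00515 and 0.00177). Its DMSO level also differed between the experiments, at 4.33 and 5.61 RPKM against 1.32 and 1.72 RPKM.

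Of 17 sensors and kinases upstream of IRF3, IRF5 and IRF7 tested, 0 rose and 4 fell with SGC-CBP30, beside 3.47% and 3.79% of all genes tested. With CPI203, 1 rose and 6 fell, beside 13.4% and 14.4%. IKBKE, the inducible kinase that phosphorylates IRF3 and IRF7, was at 29.4 and 31.6 RPKM with DMSO and fell to 13.8 and 11.8 RPKM with SGC-CBP30. In the CPI203 experiment it fell from 17.7 and 17.4 RPKM to 7.02 and 7.10 RPKM. The log2 fold changes were -1.25 and -1.30 (SE 0.078 each, limma adjusted p = 4.69e-06 and 4.91e-07). The related kinase TBK1 was not called with either compound, with log2 fold changes of 0.34 and 0.27. CXorf21 and SLC15A4, which act together in endosomal Toll-like receptor signalling to IRF5, fell by 0.71 and 0.70 with SGC-CBP30, and the fourth to fall was UNC93B1. With CPI203, the adaptor MYD88 fell by 0.93 and the DNA sensor MB21D1 (cGAS) by 0.89, and the gene that rose was TRAF6, at 0.79. IRF7 was thus higher with CPI203 while IKBKE and MYD88 were lower.

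Genes that ISGF3 and IRF1 are known to drive were followed in 2 lists, with the same shares of all genes as background. Of 16 type I interferon-stimulated genes tested, 0 rose and 4 fell with SGC-CBP30 (XAF1, PARP14, OAS1 and DTX3L), and 1 rose (IFI6) and 5 fell with CPI203, XAF1, DTX3L, SP110, SAMD9L and EIF2AK2. The largest falls with CPI203 were XAF1 by 1.94 and DTX3L by 1.45 (limma adjusted p = 1.67e-05 and 7.3e-05), and IFI6 rose by 0.71 on the log2 scale. A further 19 of the 35 listed had a mean under 1 RPKM. Of 15 interferon-gamma and IRF1 target genes tested, 1 rose and 7 fell with SGC-CBP30, and 1 rose (HLA-E) and 3 fell with CPI203. CIITA, the master regulator of HLA class II, fell by 1.96 with SGC-CBP30 and by 2.42 with CPI203, and the chemokine CXCL10 fell by 2.04 and 1.99. IL15 rose by 0.76 with SGC-CBP30. UNC93B1, TRAF6, IFI6, SAMD9L, EIF2AK2 and HLA-E were named after their values were seen.

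**Figure D4:**
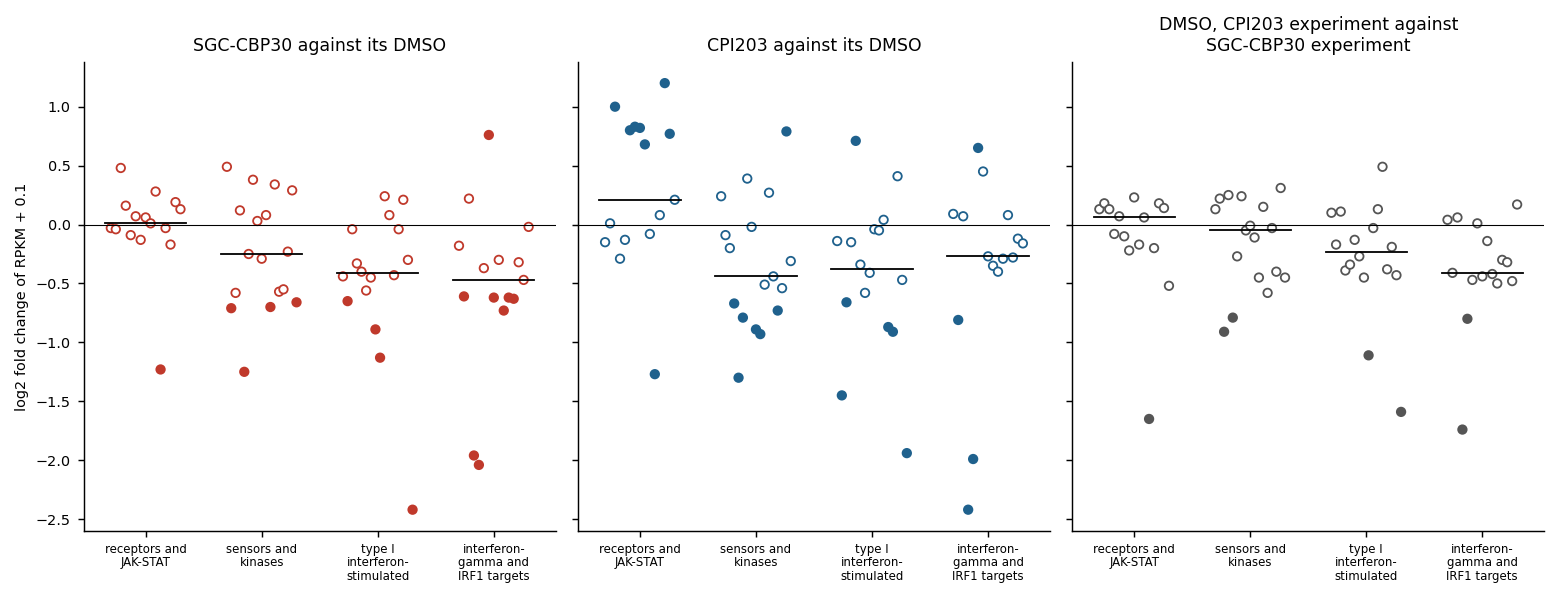
Log2 fold change of RPKM + 0.1 (y axis) of the tested genes in 4 interferon pathway lists (x axis), for SGC-CBP30, for CPI203 and for the CPI203 controls against those of the SGC-CBP30 experiment. Each point is a gene, filled where called, and lines are medians. Receptors and JAK-STAT components have a median of 0.21 with CPI203, and the other 3 lists have medians of -0.44, -0.37 and -0.27.

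Several of these genes also differed between the DMSO libraries. Of the 72 tested, 7 were called lower in the CPI203 experiment and 0 higher, where 3.91% and 3.93% of all genes tested were. The median log2 difference of the 72 was -0.17, beside 0.01 over all genes tested. The 7 called were CIITA (53.3 and 52.2 RPKM against 17.1 and 14.4 RPKM), PTPN6, XAF1, PARP14, DHX58, CXCL10 and IKBKE. For CIITA the log2 difference was -1.74 (limma adjusted p = 5.6e-07) and for XAF1 -1.59 (limma adjusted p = 0.000264). PARP14, an interferon-induced ADP-ribosyltransferase, was at 8.21 and 7.57 RPKM in the SGC-CBP30 controls and between 3.22 and 3.76 RPKM in the other 6 libraries, whatever their treatment. In the SGC-CBP30 experiment the untreated cells therefore held more RNA of IRF2 and of these 7 genes. Other pathway genes lay the other way. SAMD9L and STAT2 were higher in the CPI203 controls, by 0.49 and 0.18 on the log2 scale, and neither was called. DHX58 was named after its values were seen.

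Of the 5 coactivators that the compounds address, 0 were called with SGC-CBP30, where 3.47% of all genes tested were called higher and 3.79% lower. With CPI203, 2 were called higher and 0 lower, where 13.4% and 14.4% of all genes tested were. These were BRD2, higher by 0.95 (SE 0.032, limma adjusted p = 1.8e-08), and BRD3, by 0.68 (SE 0.238, limma adjusted p = 0.0294), on the log2 scale. CREBBP and EP300 differed from DMSO by 0.06 and 0.30 with SGC-CBP30 and by 0.17 and 0.57 with CPI203 on the log2 scale, and neither was called.

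The genes whose levels followed each factor most closely over the 8 libraries were listed as a description. Pearson correlations of log2(RPKM + 0.1) over 8 libraries in 4 groups mainly reflect the group means, and the best of 14732 genes are high by selection. For IRF7 they were CD46 (r = 0.999), NDST2 (0.993) and JUN (0.993). A high correlation does not mean a change of like size, and CD46 had a log2 fold change of 0.38 with CPI203. For IRF9 they were SERTAD1 (0.998), TMEM2 (0.997) and ZNF799 (0.997), and for IRF8 BTN3A2 (0.998), AC108938.2 (0.997) and FAM27C (0.997). SERTAD1 and TMEM2 followed the shape of IRF9 with larger changes, at log2 fold changes of 3.45 and 2.79 with CPI203. For IRF2 they were SOGA2 (0.995), EIF3K (0.992) and PLEKHG4B (0.990). With SGC-CBP30, SOGA2 and PLEKHG4B differed by -1.45 and -1.33, and EIF3K by only -0.20. IRF1 was followed by DUSP5 (0.974), ABHD16A (0.965) and LPP (0.962). For IRF3 the genes were ATF4P3, OGFOD2 and VPS51 (0.964, 0.956 and 0.953). For IRF2BP1 they were RP11-561C5.4, C9orf16 and FAM222B (0.969, 0.966 and 0.962), for IRF2BP2 COX8A, TFPT and MUS81 (0.989, 0.989 and 0.987), and for IRF2BPL CDYL, ARHGEF2 and ZNF217 (0.979, 0.978 and 0.975). ATF4P3 is a pseudogene of ATF4, and its values are uncertain where the 2 share reads.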

How the data were processed

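RNA sequencing of 8 LP-1 libraries was analysed. The authors deposited 1 RPKM value per gene and library, which a sequencing provider made by mapping to hg19, from total RNA treated with DNase on the column. The submitters' processing notes list TopHat 1.4.1 and Cufflinks. The library preparation, strandedness and annotation release are not given in the sources used here. Another 24 columns in the deposited table belong to libraries outside these samples and were not used.

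A missing value removed 27 genes, and the 14732 averaging 1 RPKM or more were fitted as log2(RPKM + 0.1), a pseudocount of 0.1, with limma 3.58.1 in R 4.3.3 (4 group means, eBayes with an intensity trend, Benjamini-Hochberg adjustment over all genes tested). p-values measure only the spread between these libraries. The fit was tested on simulated data. RPKM values hold no counts, and depth was estimated from steps of whole reads, on which 60.9% to 72.8% of low values fell within 0.1 read. Where a symbol had several rows, the row on a primary chromosome with the highest mean was used.

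The 10 genes and the pathway lists were chosen with earlier results of these data known. The other genes named are IRF4, STAT2, TBK1, IKBKE, CREBBP and EP300, for each list and compound the 3 largest changes among called genes, the 3 genes most correlated with each factor, and genes overlapping one. A few others that the rule names are not reported here. The paper describes its compound-treated replicates as normalised to paired DMSO controls. The main fit left pairing out, and same-numbered libraries deviated together with correlations of -0.10 (SGC-CBP30 experiment) and 0.01 (CPI203 experiment). Such correlations show no shared deviation of replicates but cannot tell whether libraries were paired. A fit with a replicate block is given below. Promoter windows came from RefSeq (GRCh38.p14) and tables and figures were made with Python 3.11.15, pandas 2.3.3, numpy 2.4.6 and matplotlib 3.10.9. Alternatives were another pseudocount, filter, scaling, control set, block, fit and threshold, and each library left out in turn.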

Additional observations from a re-analysis of the deposited data

How the results depend on the processing

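The calls of IRF7 and IRF9 with CPI203 were made under all 17 alternatives run for them and that of IRF8 under all 16 in which it was tested, since a mean of at least 5 RPKM leaves IRF8 out. That of IRF2 with SGC-CBP30 was made under 16 of 17. With all 4 DMSO libraries as controls, SGC-CBP30 had 0 calls among the 9 genes and CPI203 had 5 (IRF2 and IRF2BP2 in addition), 4 pathway genes were called with SGC-CBP30, and the log2 difference of IRF2 between the compounds turned to 0.09. Median scaling and quantile normalization each gave 2 calls with SGC-CBP30, IRF2 and IRF2BPL. With no fold minimum, 4 were called with SGC-CBP30 (1 higher, 3 lower) and 6 with CPI203 (3 higher, 3 lower), and 49 and 51 pathway genes. With a 2-fold minimum, 0 were called between the DMSO groups, and 6 and 9 pathway genes with SGC-CBP30 and CPI203. A mean of at least 5 RPKM, which tests fewer genes, left 11 pathway genes with SGC-CBP30. Leaving out each library in turn gave 1 to 2 calls with SGC-CBP30 (2 without SGC-CBP30 R1), 3 to 4 with CPI203, 6 for the difference between the compounds and 1 to 2 between the DMSO groups, and 14 to 18 and 29 to 34 pathway genes. A group left with 1 library was then assumed to vary like the others. Where no cause is named, the cause was not tested. With the replicate block, 1 and 3 of the 9 and 17 and 30 pathway genes were called with SGC-CBP30 and CPI203, and no call of the 9 genes changed. Of 577 recomputed values of single genes, 511 stayed within 1 SD of the replicates. Depth limits IRF5 and, with CPI203, IRF8.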

Other observations

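Some guanylate-binding proteins, interferon-gamma targets that were too low to test, were unevenly present in the 2 experiments. GBP2 was at most 0.085 RPKM in the 4 libraries of the SGC-CBP30 experiment and between 0.901 and 1.31 RPKM in the 4 of the CPI203 experiment. GBP5 was at most 0.0146 RPKM in the former and 0.235 to 0.534 RPKM in the latter, and GBP4 at most 0.0467 RPKM and 0.122 to 0.51 RPKM. GBP1 and GBP3 lay otherwise. GBP1 was at 0.235 and 0.371 RPKM in the SGC-CBP30 controls and 0.726 and 0.728 RPKM with SGC-CBP30. In the CPI203 experiment GBP1 was at 0.58 to 0.705 RPKM. GBP3 was at 0.931 to 1.38 RPKM in the SGC-CBP30 experiment and 0.679 to 0.948 RPKM in the CPI203 experiment. MX1, a type I interferon-stimulated gene, was highest in the SGC-CBP30 controls at 1.39 and 1.46 RPKM, and lay between 0.162 and 0.428 RPKM in the other 6 libraries. The T cell marker CD3D was listed at 0 in the SGC-CBP30 experiment and was at 0.375 to 0.499 RPKM in the CPI203 experiment, with and without compound. BATF3, a partner of IRF8, was at 1.02 and 0.908 RPKM with DMSO and at 0.196 and 0.120 RPKM with CPI203. These genes were picked after their values were seen, had a mean under 1 RPKM and were not tested.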
